A study of Homo sapiens with 16 samples.

Results

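Glutathione is a small thiol peptide built from glutamate, cysteine and glycine, and it is the main soluble antioxidant of the cell. Cells make it by joining glutamate to cysteine and then adding glycine, spend it in reducing peroxides, restore the oxidised form with NADPH, and break it down by splitting off the glutamyl group. CHAC1, which performs that last step in the cytosol, is a known target of the transcription factor ATF4, which is translated more when the kinase GCN2 senses a shortage of amino acids. The 9 genes described here were taken by name to cover those steps, though earlier results of these data were known. GCLC, GCLM and GSS stand for synthesis, GSR for reduction, GPX1 and GPX4 for use, and CHAC1, CHAC2 and GGCT for breakdown. They are 9 of the 62754 genes in the deposited counts, and 9 of 9 passed the filter on low counts.

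The cells were LNCaP, a human prostate cancer line with an active androgen receptor. WT cells and p53 KO cells made with CRISPR received either vehicle (DMSO) or 5 µM GCN2iB, an inhibitor of GCN2, for 48 h, so that each genotype has a vehicle group and a GCN2iB group. Each of these 4 groups has 4 libraries, of 17418072 to 39915685 counts each. Whether the p53 KO cells are a single clone or a pool, and whether the numbered libraries come from separate cultures, is not stated in the labels, so the p-values below describe the spread between libraries, which may be technical.

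The genotype labels were checked through CDKN1A, a target of p53 that encodes the cell cycle inhibitor p21. CDKN1A averaged 275 ± 21.1 CPM (counts scaled to the library size; SD, n = 4) in WT vehicle and 37.5 ± 3.73 in p53 KO vehicle. No p53 KO library overlapped the WT libraries. All 11 luminal prostate markers passed the filter, and their summed level was 7640 to 7840 CPM in WT vehicle, 6760 to 6880 in WT GCN2iB, 7080 to 7180 in p53 KO vehicle and 6270 to 6620 in p53 KO GCN2iB. These sums were thus lower under GCN2iB in both genotypes, and their part in the results was not tested. Of the markers of other cell types, 1 of 3 basal, 3 of 4 fibroblast, 1 of 3 endothelial and 1 of 5 immune genes passed the filter, with summed levels of at most 24.3 CPM. In RNA from whole cultures, fewer cells of a kind and less RNA per cell cannot be told apart. On the first principal component, which held 34.4% of the variance, WT GCN2iB replicate 4 lay at -18.3 and the other WT libraries between -33.6 and -28.0, while the p53 KO libraries lay between 26.7 and 32.5. On the second component, which held 16.4%, p53 KO GCN2iB replicate 4 lay at -30.55 and the rest of its group between -13.87 and -10.92. Results were also computed without the GCN2iB libraries numbered 4 of both genotypes.

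Short stretches near the RefSeq starts of CHAC1 and GCLM are printed because they hold core letters of response elements for which this pathway is known. These are the C/EBP-ATF response element (CARE) and the antioxidant response element (ARE). Whether either match works as such an element was not tested. RefSeq start-site windows on GRCh38.p14, reaching 250 bases before and 50 bases after a start, were at hand for 6 of the 9 genes. Both strands were searched for TGATGNAA (CARE core), TGACGTCA (CRE) and TGACNNNGC (ARE core). CHAC1 had 1 CARE core match at chr15:40953262-40953269, which begins 209 bases before the RefSeq start and reads on the strand opposite to the gene. GENCODE 29 starts the CHAC1 gene further upstream, at 40952962, so the match lies inside the gene as GENCODE annotates it. GCLM had 1 ARE core match at chr1:93909456-93909464, which begins 34 bases before its start, again on the opposite strand. The gene's own strand is shown, 5′ to 3′, with the match in capitals (CHAC1 at chr15:40953251-40953280, plus strand, and GCLM at chr1:93909446-93909475, minus strand).
CHAC1: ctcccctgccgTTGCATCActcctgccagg
GCLM: ctacgatttctGCTTAGTCAttgtcttcca
The windows of CHAC2, GCLC, GPX1 and GPX4 held none of these letters, and no window of the 6 genes held the CRE. Over all 35116 RefSeq windows of this length the CARE core was present in 3.62%, the CRE in 1.85% and the ARE core in 13.3%, so a match describes the sequence and shows no binding.

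To compare levels between genes, CPM were divided by transcript length in kilobases. In WT vehicle GPX4 was highest at 287 ± 46.3 CPM per kb, followed by GSR at 127 ± 3.06 and GSS at 71.9 ± 5.94. GPX1 (50.2 ± 5.81) and GGCT (38.3 ± 3.38) came next, with overlapping libraries. The lowest levels per kb were those of CHAC1 (12.8 ± 1.15), GCLM (11.7 ± 0.480), CHAC2 (7.93 ± 0.920) and GCLC (5.91 ± 0.215), of which CHAC1 and GCLM overlapped. The order changed mainly through CHAC1. Under GCN2iB it was the lowest of the 9 genes, at 1.34 ± 0.288 CPM per kb in WT and 2.18 ± 0.380 in p53 KO, and its libraries lay apart from those of GCLC, the next above it (4.92 ± 0.471 and 5.52 ± 0.328). In p53 KO vehicle CHAC1 stood at 15.1 ± 1.88 CPM per kb, again overlapping GCLM. Lengths taken over all annotated exons kept GPX4 and GSR first and CHAC1 last under GCN2iB. Other ranks depended on the length used. In WT vehicle these lengths put GPX1 (40.4 CPM per kb) above GSS (31.5) and GCLM (10.5) above CHAC1 (9.73). They also brought GPX4 (131) and GSR (108) closer together.

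**Figure D1:**
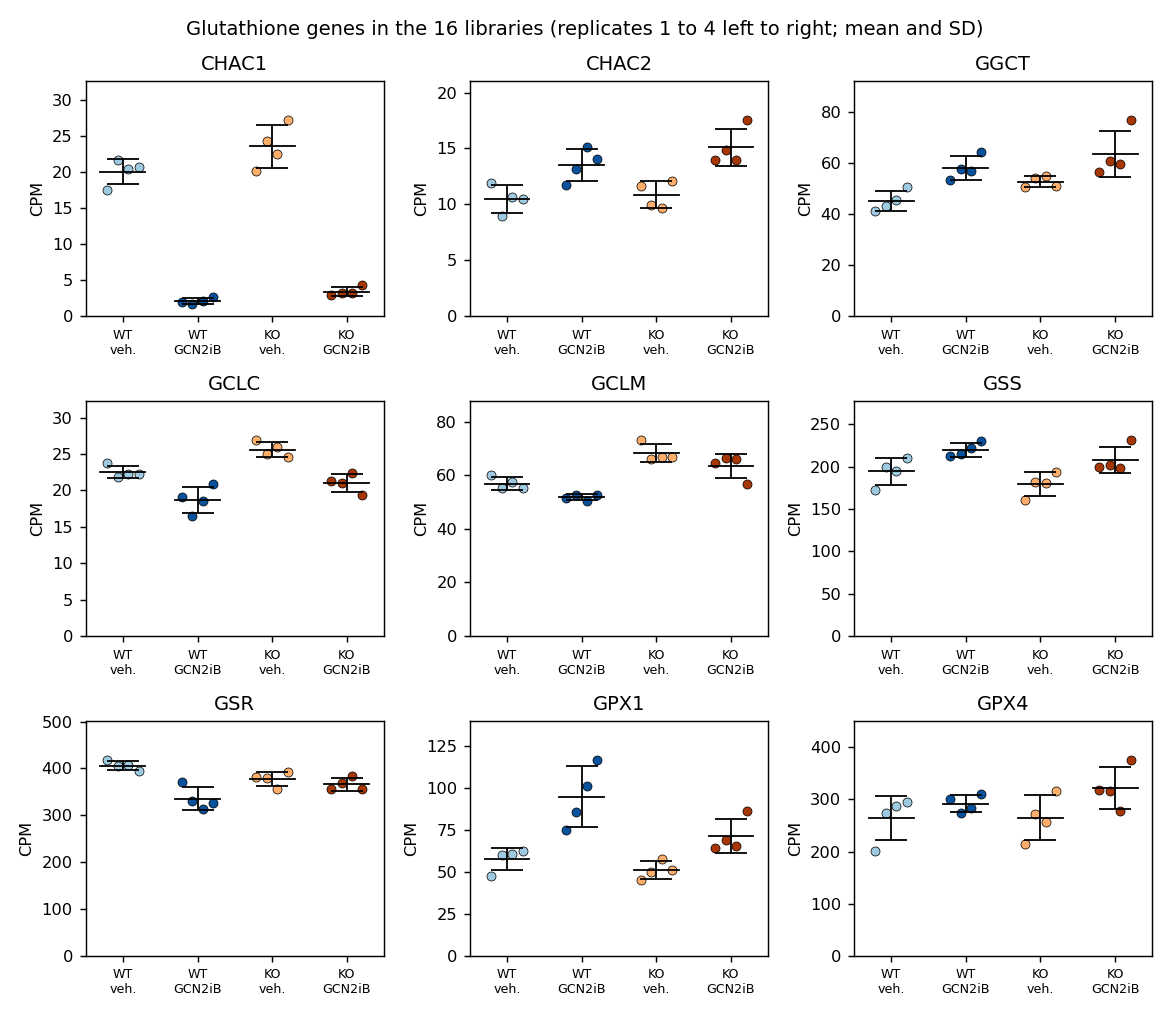
Level of each of the 9 genes in the 16 libraries, as CPM on linear axes that start at 0, with 1 point per library and the mean and SD of each group. CHAC1 lies between 17.5 and 27.1 CPM in the vehicle libraries and between 1.65 and 4.28 CPM under GCN2iB, whereas the other genes move far less.

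CHAC1 (ENSG00000128965, chr15:40952962-40956519, plus strand, GRCh38 with GENCODE 29) fell the furthest of the 9 genes. It was at 17.5, 21.6, 20.4 and 20.6 CPM in the WT vehicle libraries and at 1.92, 1.65, 2.06 and 2.71 CPM in WT GCN2iB. In p53 KO it was at 20.2, 24.2, 22.5 and 27.1 CPM with vehicle and at 2.99, 3.17, 3.17 and 4.28 CPM with GCN2iB. Every GCN2iB library lay far below every vehicle library, and the counts behind the low values were 49 to 147 reads per library. With edgeR's quasi-likelihood test and Benjamini-Hochberg adjustment over the 18549 genes tested, CHAC1 was 9.52-fold lower with GCN2iB in WT (log2 -3.25, SE 0.14, adjusted p = 7.61e-14) and 6.86-fold lower in p53 KO (log2 -2.78, SE 0.13, adjusted p = 1.06e-12). Among the log2 changes of all genes tested, this was the fall of rank 2 in WT and of rank 5 in p53 KO. Without the GCN2iB libraries numbered 4 the changes were -3.42 and -2.92 on the log2 scale.

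CHAC2, the paralogue of CHAC1 that degrades glutathione more slowly, moved the other way. CHAC2 (ENSG00000143942, chr2:53767792-53775196, plus strand) was at 11.9, 8.93, 10.6 and 10.4 CPM in WT vehicle and at 11.7, 13.2, 15.1 and 14.1 CPM in WT GCN2iB. These groups overlapped in 1 place, where WT GCN2iB replicate 1 lay just below WT vehicle replicate 1. In p53 KO the levels of 11.7, 9.95, 9.71 and 12.1 CPM with vehicle were all below the 14.0, 14.9, 13.9 and 17.5 CPM with GCN2iB. CHAC2 rose by 0.38 on the log2 scale in WT (SE 0.11, adjusted p = 0.0109, edgeR) and by 0.48 in p53 KO (SE 0.10, adjusted p = 0.00204, edgeR).

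GGCT, which splits gamma-glutamyl amino acids that arise when glutathione is taken apart outside the cell, also rose. GGCT (ENSG00000006625, chr7:30496621-30504844, minus strand) was at 41.2, 43.1, 45.4 and 50.3 CPM in WT vehicle and at 53.1, 57.7, 56.7 and 64.4 CPM in WT GCN2iB, with no overlap. The p53 KO libraries were at 50.6, 54.1, 54.9 and 50.9 CPM with vehicle and at 56.3, 60.8, 59.5 and 76.6 CPM with GCN2iB, where replicate 4 stood well above the other libraries. The rise was 0.36 on the log2 scale in WT (SE 0.09, adjusted p = 0.0032, edgeR) and 0.27 in p53 KO (SE 0.09, adjusted p = 0.0281). The p53 KO call was lost without p53 KO GCN2iB replicate 4 (0.16, adjusted p = 0.138), p53 KO vehicle replicate 1 (0.25, adjusted p = 0.0662) or p53 KO vehicle replicate 4 (0.25, adjusted p = 0.0573). It was also lost with library totals as the scaling (0.19, adjusted p = 0.0806), with the compared groups alone (0.26, adjusted p = 0.0529) and with the GC and length trends removed (0.14, adjusted p = 0.0957). GGCT shares 441 exon bases, 27.6% of its exons, with the protein-coding gene AC005154.5 on the same strand, so part of its reads could not be assigned with certainty.

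Of the synthesis genes, GCLC was lower with GCN2iB in both genotypes, GSS lay close to the threshold in both, and GCLM passed the test in neither. GCLC and GCLM encode the catalytic and the modifier subunit of glutamate-cysteine ligase, the rate-limiting enzyme of the pathway. GCLC (ENSG00000001084, chr6:53497341-53616970, minus strand) was at 23.7, 21.9, 22.3 and 22.3 CPM in WT vehicle and at 19.1, 16.5, 18.6 and 20.9 CPM in WT GCN2iB. The p53 KO levels were 26.9, 25.0, 25.9 and 24.6 CPM with vehicle and 21.2, 21.1, 22.5 and 19.4 CPM with GCN2iB. The treated libraries lay below the vehicle libraries in each genotype without overlap. GCLC fell by 0.26 on the log2 scale in WT (SE 0.07, adjusted p = 0.0108, edgeR) and by 0.29 in p53 KO (SE 0.07, adjusted p = 0.00658). The WT call was lost without WT GCN2iB replicate 2 (adjusted p = 0.0705). GCLC shares 6.1% of its exon bases with AL033397.1, a non-coding gene on the same strand.

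GCLM (ENSG00000023909, chr1:93885205-93909456, minus strand) was at 60.0, 55.1, 57.4 and 55.0 CPM in WT vehicle and at 51.5, 52.7, 50.3 and 52.6 CPM in WT GCN2iB. With p53 knocked out it was at 73.1, 66.2, 66.8 and 66.7 CPM with vehicle and at 64.6, 66.5, 66.1 and 56.9 CPM with GCN2iB. The treated WT libraries lay just below the vehicle libraries, and those of p53 KO overlapped. The changes with GCN2iB were -0.13 in WT (95% interval -0.26 to -0.01, adjusted p = 0.117, edgeR) and -0.10 in p53 KO (-0.22 to 0.02, adjusted p = 0.251), on the log2 scale.

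GSS encodes glutathione synthetase, which adds the glycine. GSS (ENSG00000100983, chr20:34928433-34956027, minus strand) was at 172, 199.7, 195 and 211 CPM in WT vehicle and at 212, 215, 222 and 230.1 CPM in WT GCN2iB. The p53 KO libraries were at 160.4, 182, 181 and 194 CPM with vehicle and at 199, 202, 198 and 231 CPM with GCN2iB. No treated library overlapped the vehicle libraries of its genotype. GSS rose by 0.21 on the log2 scale in p53 KO (SE 0.07, adjusted p = 0.0315, edgeR), and its change in WT was 0.18 (SE 0.07, adjusted p = 0.0649). The WT value passed in 10 of 26 other settings, with DESeq2 size factors among them (0.19, adjusted p = 0.0483). The p53 KO call was lost without p53 KO GCN2iB replicate 4 (0.16, adjusted p = 0.111) or without p53 KO vehicle replicate 1, 2 or 3 (adjusted p = 0.116, 0.0634 and 0.0667), and with library totals as the scaling (0.14, adjusted p = 0.114).

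GSR encodes glutathione reductase, which regenerates reduced glutathione from its disulfide with NADPH. GSR (ENSG00000104687, chr8:30678061-30727999, minus strand) was at 418, 404, 407 and 395 CPM in WT vehicle and at 372, 331, 313 and 326 CPM in WT GCN2iB. The p53 KO libraries were at 383, 379, 356 and 393 CPM with vehicle and at 355, 369, 383 and 355 CPM with GCN2iB. The WT groups lay apart and the p53 KO groups overlapped. GSR fell by 0.27 on the log2 scale in WT (SE 0.06, adjusted p = 0.00123, edgeR). Its change in p53 KO was -0.05 (95% interval -0.16 to 0.07, adjusted p = 0.617). The difference between these changes was 0.23 (0.07 to 0.39) and missed the threshold (adjusted p = 0.392), so the responses of the genotypes were not shown to differ.

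GPX1 and GPX4 are the selenium-containing peroxidases that use glutathione, GPX1 on hydrogen peroxide and GPX4 on lipid peroxides in membranes, where it guards against ferroptosis. GPX1 had the largest rise among the 9 genes in WT. GPX1 (ENSG00000233276, chr3:49357171-49358600, minus strand) was at 47.8, 60.3, 60.6 and 62.2 CPM in WT vehicle and at 75.2, 85.5, 101 and 117 CPM in WT GCN2iB. The p53 KO levels were 45.4, 49.8, 57.9 and 50.9 CPM with vehicle and 64.5, 68.9, 65.6 and 86.1 CPM with GCN2iB. Treated and vehicle libraries did not overlap in either genotype. GPX1 was 1.64-fold higher with GCN2iB in WT (log2 0.71, SE 0.12, adjusted p = 3.77e-04, edgeR) and 1.40-fold higher in p53 KO (log2 0.48, SE 0.12, adjusted p = 0.00951). GENCODE 29 holds 2 processed pseudogenes of it, GPX1P1 on chromosome X and GPX1P2 on chromosome 21, to which some reads could have been assigned.

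Libraries also differed in how counts followed GC content and transcript length, and GPX1 is rich in GC (64.2%). Fitted at GPX1, the trend was -0.28, -0.05, -0.07 and 0.09 on the log2 scale in WT vehicle and 0.07, 0.17, 0.15 and 0.20 in WT GCN2iB, so it moved the same way as GPX1. In p53 KO it was -0.29, -0.08, -0.09 and 0.07 with vehicle and -0.05, -0.01, -0.15 and 0.32 with GCN2iB. With the trends taken out as offsets, an alternative added after these values were known, the rise of GPX1 was 0.49 in WT (adjusted p = 0.00103, edgeR) and 0.34 in p53 KO (adjusted p = 0.0139). CHAC1, with a GC content of 62.6%, changed by -3.39 in WT and -2.87 in p53 KO in that fit.

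**Figure D2:**
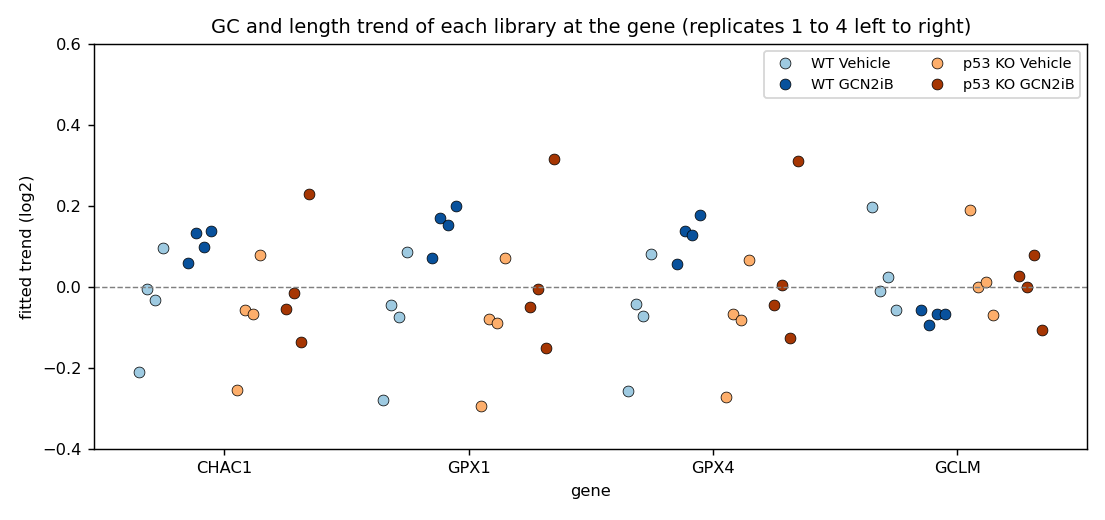
Trend fitted to GC content and length of transcripts in every library (log2, y axis) at CHAC1, GPX1, GPX4 and GCLM, with 1 point per library, coloured by group. At GPX1 the WT GCN2iB libraries lie between 0.07 and 0.20, the WT vehicle libraries between -0.28 and 0.09, and p53 KO GCN2iB replicate 4 at 0.32.

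GPX4 (ENSG00000167468, chr19:1103926-1106791, plus strand) was at 202, 273, 287 and 294.5 CPM in WT vehicle and at 301, 273, 283 and 311 CPM in WT GCN2iB. With p53 knocked out it was at 215, 273, 257 and 317 CPM with vehicle and at 318, 316, 278 and 376 CPM with GCN2iB. The groups overlapped in both genotypes, and replicate 1 was the lowest vehicle library in each. The change with GCN2iB was 0.14 in WT (95% interval -0.09 to 0.38, adjusted p = 0.41, edgeR) and 0.28 in p53 KO (0.05 to 0.51, adjusted p = 0.106). The WT value changed sign with the GC and length trends removed (-0.04, adjusted p = 0.649).

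Counted over the 9 genes, the GCN2iB comparison in WT called 3 higher (CHAC2, GGCT, GPX1) and 3 lower (CHAC1, GCLC, GSR), where 25.2% of all genes tested were called (11.6% higher and 13.6% lower). In the p53 KO comparison 4 were higher (CHAC2, GGCT, GSS, GPX1) and 2 lower (CHAC1, GCLC), against 20.1% of all genes (11.4% higher and 8.71% lower). With library totals as the scaling the p53 KO count became 2 higher and 2 lower. Without the GCN2iB libraries numbered 4 it was 3 higher and 3 lower in WT and 2 higher and 2 lower in p53 KO, where GGCT (0.16, adjusted p = 0.117) and GSS (0.16, adjusted p = 0.115) were no longer called. Among all genes 1.21% in WT and 0.69% in p53 KO were called with at least a 2-fold change, and of the 9 genes CHAC1 alone was among them. The median log2 change of the 9 genes was 0.14 in WT and 0.21 in p53 KO, beside -0.03 and -0.01 over all genes. The shares of all genes include genes with low counts, of which a smaller share was called. The members were chosen by name with earlier results known and are few. These shares thus describe them and say nothing of the pathway as a whole.

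**Figure D3:**
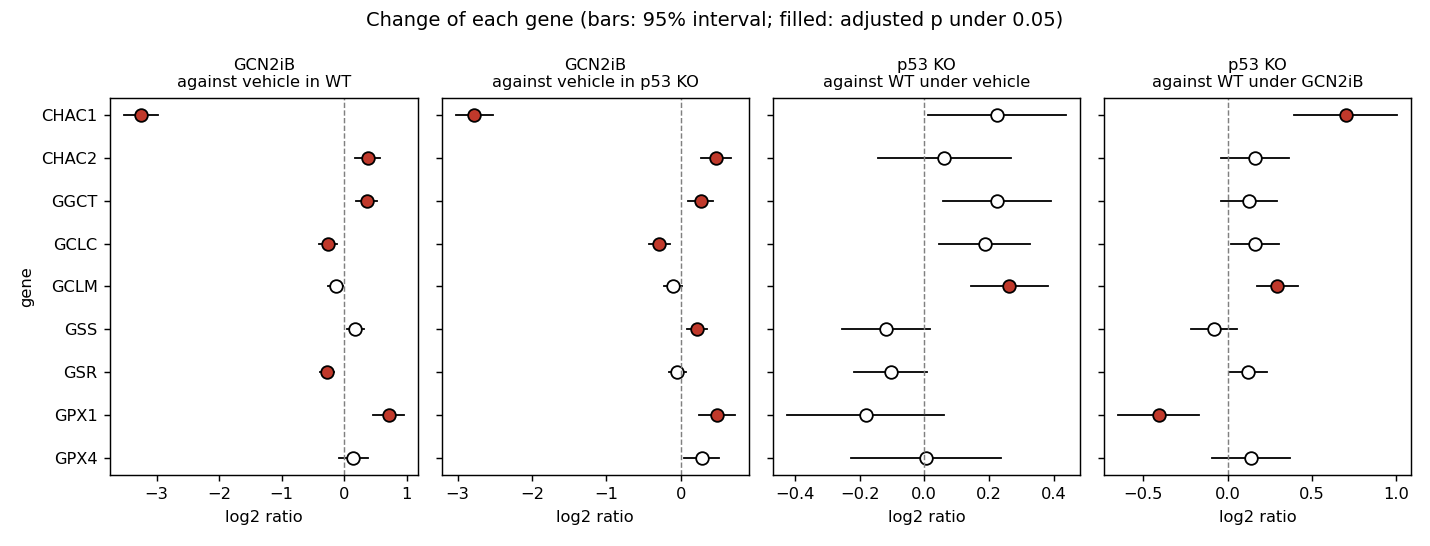
Log2 ratio of each gene in 4 comparisons with its 95% interval, filled where the adjusted p was under 0.05. The x axes differ between panels; CHAC1 lies at -3.25 and -2.78 in the GCN2iB comparisons, and every other gene lies between -0.41 and 0.71 in all 4.

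Between the genotypes the number of the 9 genes called under vehicle depended on the processing. Under vehicle GCLM alone was called of the 9 genes (3 with library totals, which add GGCT and GCLC, and 4 with the GC and length trends removed or with replicate number as a block), while 21.7% of all genes tested were called (9.63% higher, 12.1% lower, and 4.05% with at least a 2-fold change). GCLM was 1.20-fold higher in p53 KO (68.2 ± 3.28 against 56.9 ± 2.33 CPM; log2 0.26, SE 0.06, adjusted p = 0.00296, edgeR), and no library of one genotype overlapped the other. GGCT (0.22, adjusted p = 0.0645) and GCLC (0.19, adjusted p = 0.0667) lay apart between the genotypes and just missed the threshold. The count of called genes rose to 2 without WT vehicle replicate 4 or without p53 KO GCN2iB replicate 4, in both cases through GGCT. CHAC1 differed by 0.22 (95% interval 0.01 to 0.44, adjusted p = 0.154) with overlapping libraries. Its unadjusted p was 0.0508 (edgeR), so the normal interval leaves out 0 where the test does not pass. GPX4 differed by 0.01 (-0.23 to 0.24, adjusted p = 0.984).

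Under GCN2iB 2 of the 9 genes were higher and 1 was lower in p53 KO, where 23.9% of all genes tested were called (12.7% higher, 11.2% lower, and 3.98% with at least a 2-fold change). CHAC1 was 1.62-fold higher in p53 KO (3.40 ± 0.592 against 2.08 ± 0.449 CPM; log2 0.70, SE 0.16, adjusted p = 0.00207, edgeR). All 4 p53 KO libraries lay above all 4 WT libraries, although the lowest p53 KO value, 2.99 CPM, was near the highest WT value, 2.71 CPM in the library that stood apart. Without WT GCN2iB replicate 4 the difference was 0.84, and without p53 KO GCN2iB replicate 4 it was 0.55. GCLM was again higher in p53 KO, by 0.29 (SE 0.06, adjusted p = 0.00118). GPX1 was lower in p53 KO, by -0.41 on the log2 scale (71.3 ± 10.1 against 94.7 ± 18.2 CPM; SE 0.12, adjusted p = 0.0207), with overlapping libraries. This call was lost without WT GCN2iB replicate 4 (-0.32, adjusted p = 0.0523) or without p53 KO GCN2iB replicate 2 (-0.39, adjusted p = 0.0529).

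Whether GCN2iB acted differently in the genotypes was tested with the interaction term. The fall of CHAC1 was smaller in p53 KO by 0.47 on the log2 scale (95% interval 0.10 to 0.85, adjusted p = 0.453, edgeR), which did not pass. None of the 9 genes was called by edgeR, DESeq2 or limma voom, and 2 of them, CHAC1 and GSR, had an unadjusted p under 0.05. Over all genes edgeR called 1 of 18549 (0.00539%), with 1754 at an unadjusted p under 0.05, and DESeq2 called 19 higher and 19 lower.

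The other genes of the pathway were taken as 12 lists by function, holding 171 genes, of which 143 were tested. With GCN2iB 14 of them rose and 34 fell in WT, where 11.6% of all genes tested rose and 13.6% fell. In p53 KO 15 rose and 26 fell, beside 11.4% and 8.71% of all genes, so the share of the lists that rose there was near that of all genes. In both directions 33.6% of the listed genes were called in WT and 28.7% in p53 KO, beside 25.2% and 20.1% of all genes. The share of all genes called depends on the count filter. With the 13332 genes of mean count 50 or more, 2357 rose and 2197 fell in WT, and 1853 and 2062 in p53 KO. That is a larger share than among all genes tested, and the lists were not compared with genes of like counts. Library totals as the scaling made the p53 KO counts 9 and 35. Their median change was -0.06 in WT and 0.04 in p53 KO, beside -0.03 and -0.01 for all genes. Between genotypes 28 were higher and 23 lower in p53 KO under vehicle (37 and 15 with library totals), beside 9.63% and 12.1% of all genes. Under GCN2iB 36 were higher and 15 lower (41 and 27 with the GC and length trends removed), beside 12.7% and 11.2% of all genes. That is 35.7% of the listed genes in each, beside 21.7% and 23.9% of all genes. None was called for the interaction by edgeR and 1 by DESeq2.

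The list with the largest share of called genes under GCN2iB was the branch around ATF4. It holds ATF4 itself and also genes induced by it, such as TRIB3. Of its 11 genes 9 fell with GCN2iB in WT (81.8%) and 8 in p53 KO (72.7%), beside 13.6% and 8.71% of all genes, and none rose. The median log2 change was -0.46 in WT and -0.50 in p53 KO. ATF4 RNA was at 442, 496, 509 and 538 CPM in WT vehicle and at 217, 199, 209 and 226 CPM in WT GCN2iB. In p53 KO it lay between 457 and 535 CPM with vehicle and between 279 and 292 CPM with GCN2iB. ATF4 fell by 1.22 on the log2 scale in WT (SE 0.06, adjusted p = 5.61e-12, edgeR) and by 0.83 in p53 KO (SE 0.06, adjusted p = 6.28e-09). It did not differ detectably between genotypes under vehicle (0.02, 95% interval -0.10 to 0.15, adjusted p = 0.853), and under GCN2iB it was higher in p53 KO by 0.42 (adjusted p = 3.99e-05). The order of the groups was thus that of CHAC1, with the GCN2iB libraries of WT lowest and those of p53 KO next.

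DDIT3, which encodes the stress factor CHOP, fell by 0.93 in WT and 0.95 in p53 KO (adjusted p = 1.84e-05 and 6.94e-06). TRIB3, a pseudokinase induced by ATF4 and CHOP, fell by 0.79 and 0.69. ATF3, another stress factor, fell by 0.46 and 0.50, and CEBPG, a dimer partner of ATF4, fell by 0.63 and 0.50. Under vehicle 5 of the 11 genes were higher in p53 KO, among them DDIT3 (0.86, adjusted p = 1.03e-05) and ATF3 (0.67, adjusted p = 3.72e-08). Under GCN2iB 8 of the 11 were higher in p53 KO. Of all genes 9.63% were higher under vehicle and 12.7% under GCN2iB.

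**Figure D4:**
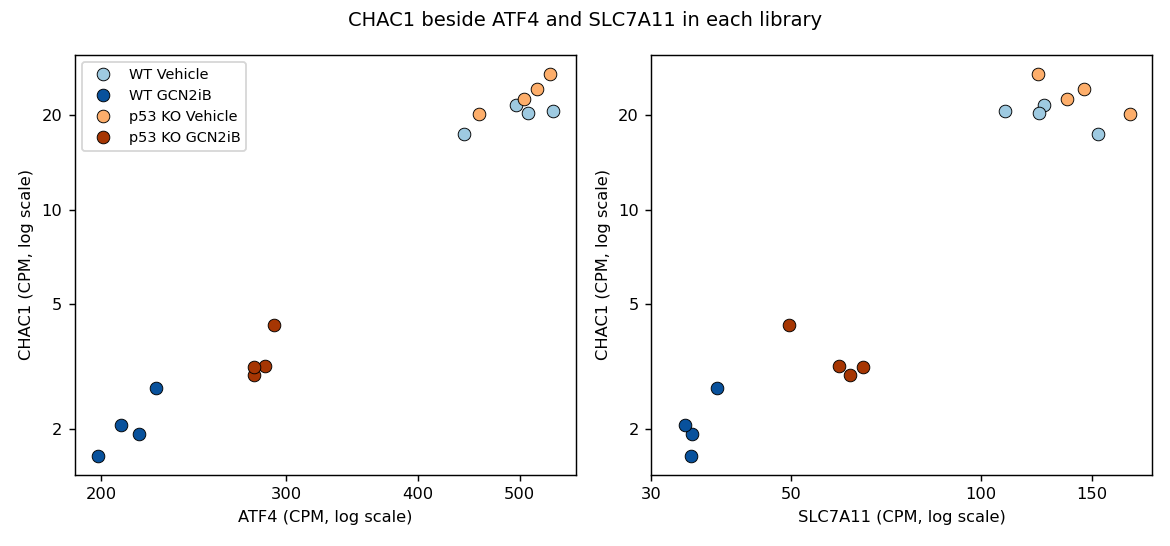
CHAC1 (y axis, CPM, log scale) against ATF4 (left) and SLC7A11 (right, CPM, log scale) in the 16 libraries, coloured by group. The vehicle libraries sit at the upper right of both panels, the WT GCN2iB libraries at the lower left, with ATF4 at 199 to 226 CPM, and the p53 KO GCN2iB libraries between, with ATF4 at 279 to 292 CPM.

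Cysteine is the limiting building block of glutathione. Of 9 tested genes of its supply 4 fell with GCN2iB in each genotype, beside 13.6% of all genes in WT and 8.71% in p53 KO, none rose, and 5 were not called. SLC7A11, the cystine-glutamate exchanger that imports cystine, was at 153, 126, 124 and 109 CPM in WT vehicle and at 34.8, 34.6, 33.9 and 38.2 CPM in WT GCN2iB. In p53 KO it was at 173, 146, 137 and 123 CPM with vehicle and at 62.1, 59.6, 64.9 and 49.5 CPM with GCN2iB. It fell by 1.85 on the log2 scale in WT (adjusted p = 7.02e-11, edgeR) and by 1.30 in p53 KO (adjusted p = 1.76e-08). Under GCN2iB it was higher in p53 KO by 0.74 (adjusted p = 2.22e-05), with no overlap. The difference of the responses, 0.56, missed the threshold (adjusted p = 0.305). SLC1A4, a transporter of neutral amino acids including cysteine, fell by 1.13 and 0.88, and CTH, the enzyme that releases cysteine from cystathionine, fell by 0.69 and 0.61.

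Among other glutathione peroxidases, 1 of 3 tested genes (33.3%) was called in each GCN2iB and genotype comparison. Of all genes 20.1% to 25.2% were called. GPX8, an endoplasmic reticulum peroxidase, fell from 14.4 ± 0.203 to 6.56 ± 1.15 CPM in WT and from 25.0 ± 1.12 to 14.8 ± 1.07 CPM in p53 KO. It was also higher in p53 KO than in WT, by 0.79 under vehicle and 1.17 under GCN2iB (adjusted p = 4.98e-07 and 4.32e-09, edgeR). Of 15 tested glutathione S-transferase genes 1 fell in WT (6.67%) and 2 rose in p53 KO (13.3%) with GCN2iB, shares below and near those of all genes (13.6% lower in WT and 11.4% higher in p53 KO). GSTCD, 1 of those 2, rose by 0.40 (adjusted p = 0.00704). GSTP1, which this line is known to silence, did not pass the filter and reached at most 0.173 CPM. Under vehicle 3 of the 15 were higher in p53 KO and 4 lower (46.7% called), beside 9.63% higher and 12.1% lower of all genes. GSTO2 (0.38, adjusted p = 0.0471, edgeR) and CLIC1 (-0.27, adjusted p = 0.00714) were among them.

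Among 11 glutaredoxins, glyoxalases and other glutathione-dependent enzymes, 2 rose and 1 fell with GCN2iB in WT and 2 rose in p53 KO. The shares called, 27.3% and 18.2%, were near those of all genes, 25.2% and 20.1%. GLRX5, a mitochondrial glutaredoxin of iron-sulfur cluster assembly, rose by 0.65 and 0.30, and GLRX3, its cytosolic relative, by 0.55 and 0.38. GLO1, the glyoxalase that uses glutathione to clear methylglyoxal, was lower in p53 KO by -0.38 under vehicle (adjusted p = 2.16e-05) and by -0.21 under GCN2iB (adjusted p = 0.00865). Of 13 thioredoxin and peroxiredoxin genes, 1 rose and 2 fell with GCN2iB in WT (23.1%) and 2 rose in p53 KO (15.4%), no more than among all genes (25.2% and 20.1%). SRXN1, the sulfiredoxin that repairs overoxidised peroxiredoxins, rose by 0.85 in WT (adjusted p = 1.24e-04, edgeR). In p53 KO its change was 0.37 (adjusted p = 0.072). TXNIP, an inhibitor of thioredoxin, rose by 0.34 in p53 KO (adjusted p = 2.60e-04), and its change in WT was 0.14 (adjusted p = 0.0721). Neither interaction was called (adjusted p = 0.472 for SRXN1 and 0.484 for TXNIP). TXNRD3 fell by 0.43 with GCN2iB in WT, and its change in p53 KO was -0.18 (adjusted p = 0.0552). Under vehicle TXNRD3 was lower in p53 KO than in WT by -0.46.

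NADPH, which GSR needs, is supplied by 11 tested genes, of which 2 (18.2%) fell with GCN2iB in each genotype and none rose. Of all genes 13.6% fell in WT and 8.71% in p53 KO, while 25.2% and 20.1% were called in either direction. IDH1, the cytosolic isocitrate dehydrogenase, fell by 0.58 in WT and 0.48 in p53 KO (adjusted p = 6.09e-08 and 1.13e-06). NNT, the mitochondrial transhydrogenase, was low everywhere, with 0.325 ± 0.166 CPM in WT vehicle and 1.52 ± 0.230 in p53 KO vehicle, a log2 difference of 2.32 (SE 0.34, adjusted p = 2.01e-05). TIGAR, a p53 target that favours the pentose phosphate route, was lower in p53 KO under vehicle by -0.68 (adjusted p = 4.40e-04, edgeR). Its difference under GCN2iB was -0.35 and was not called (adjusted p = 0.0541).

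In the gamma-glutamyl cycle outside the 9 genes, 1 of 6 tested genes (16.7%) fell with GCN2iB in WT and none was called in p53 KO by edgeR. Of all genes 25.2% and 20.1% were called in either direction, and 13.6% fell in WT. CNDP2, a dipeptidase that splits cysteinylglycine, fell by 0.21 in WT. OPLAH, which opens the 5-oxoproline that CHAC1, CHAC2 and GGCT release, was lower in p53 KO by -0.37 under vehicle and -0.56 under GCN2iB (adjusted p = 0.00297 and 4.59e-05). GGT6, a gamma-glutamyltransferase, was at or below 0.577 CPM on average in every group and was lower in p53 KO vehicle (-1.64, adjusted p = 0.00946, edgeR). That call rests on 3 to 12 reads per p53 KO vehicle library and 15 to 21 per WT vehicle library. Under GCN2iB the difference was -0.72 with overlapping libraries and was not called (adjusted p = 0.252). Among 11 transporter genes, 2 rose and 2 fell with GCN2iB in WT (36.4% called), and 4 rose and 2 fell in p53 KO (54.5% called), against the same 25.2% and 20.1%. The exporter ABCC1 fell by 0.22 and 0.33 and ABCC4 by 0.46 and 0.38, while SLC25A11, a mitochondrial carrier, rose by 0.38 and 0.42.

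**Figure D5:**
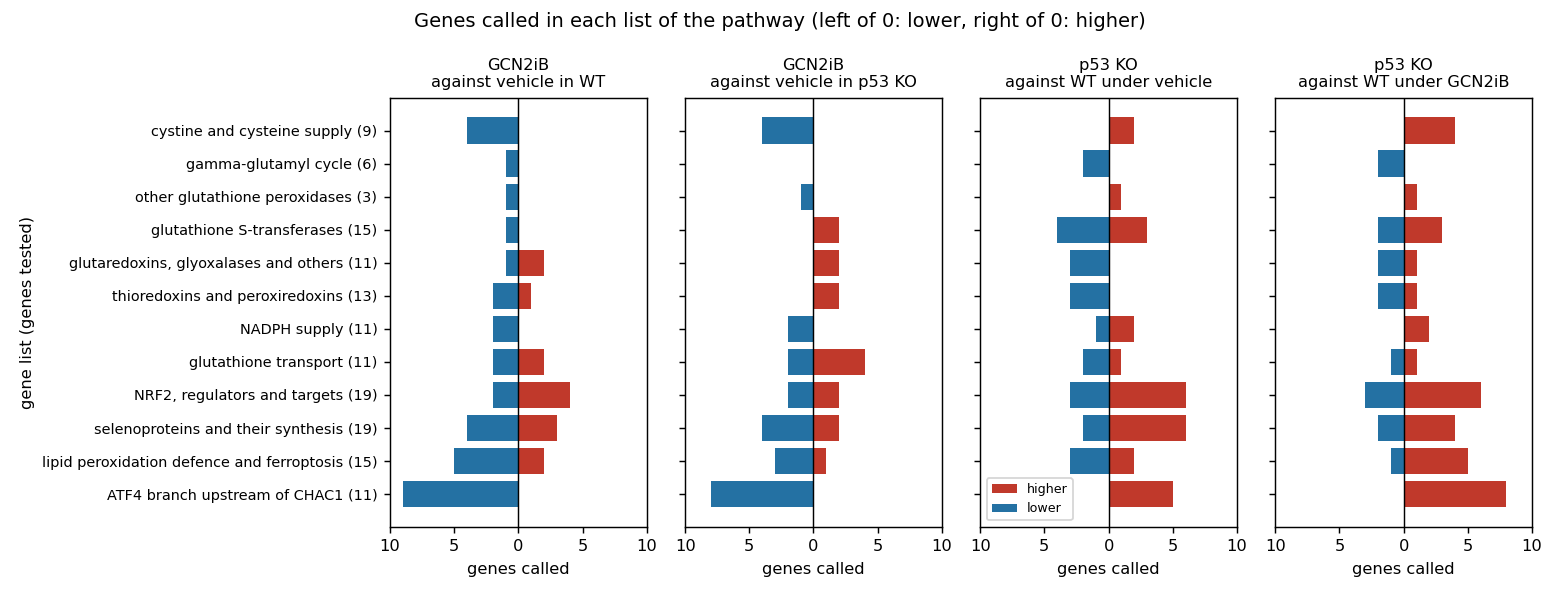
Number of genes called in each of the 12 lists in 4 comparisons, lower to the left of 0 and higher to the right, with the number tested in parentheses. The ATF4 branch has 9 and 8 genes lower with GCN2iB and 5 and 8 higher in p53 KO, and cystine and cysteine supply has 4 lower with GCN2iB in each genotype.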

How the data were processed

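Paired-end RNA-seq of 16 LNCaP libraries was deposited by the authors as raw counts per gene for 62754 genes, with no normalization. Per the submitters' processing notes, GRCh38 was the build and featureCounts, HISAT2, Trim Galore and DESeq2 were used. Their versions, the annotation release and strandedness were not given in the sources used here. Of the gene IDs 42343 had a symbol and 58261 a place in GENCODE 29.

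The filterByExpr rule of edgeR 4.0.16 (R 4.3.3) kept 18549 genes, with at least 99.905% of each library's counts. Totals were scaled by TMM, and a robust quasi-likelihood model with 1 term per group was fitted to all libraries. The 5 contrasts were tested two-sided with Benjamini-Hochberg adjustment over all genes at 0.05. An SE is the log2 change divided by the root of F, and a 95% interval is the normal one around the change. This interval is somewhat narrower than one that matches the test. CPM use the scaled totals, and lengths come from the longest principal transcript. The interval and the SE rest on a spread between libraries that was estimated within groups over all 16 libraries and drawn toward that of other genes. Each group has 4 libraries.

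Members, lists, tests and named genes were chosen with earlier results of these data known. Named are all members, up to 3 called genes per list with the smallest adjusted p (families of near-identical copies left out), the set ATF4, DDIT3, TRIB3, SLC7A11, NFE2L2 and CDKN1A, and the genes most alike to each called member; GSTP1 was added as a check. Some genes are not reported here. Alternatives were other scalings (DESeq2 1.42.0 size factors, library totals), count filters, tests (DESeq2, limma voom 3.58.1), compared groups alone, a replicate block and libraries left out. Removal of GC and length trends (5 spline degrees of freedom, fitted to 12999 genes whose mean count was 50 or more) was added after the data were seen. The model was tested on simulated data. No pair of columns was identical. Figures used matplotlib 3.10.9.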

Additional observations from a re-analysis of the deposited data

Results flagged for a closer look

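In 4 of 36 sets of 4 libraries, 1 library lay far from the others by a gap test that chance passes in about 1 of 20 sets. CHAC1 was at 4.28 CPM in p53 KO GCN2iB replicate 4 and at 2.987, 3.168 and 3.17 CPM in the others. GSS was at 231.4 CPM in the same library and at 198.4, 199.2 and 202.4 CPM in the others. GCLM was at 73.13 CPM in p53 KO vehicle replicate 1, beside 66.21, 66.7 and 66.84 CPM. GPX1 was at 47.78 CPM in WT vehicle replicate 1, beside 60.29, 60.62 and 62.25 CPM.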

How the results depend on the processing

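The 45 log2 changes of the 9 genes were recomputed under up to 26 settings, giving 1161 values, of which 1084 kept direction and side of the threshold, 18 lost and 33 gained a call, and 26 changed sign. No called change reversed. The calls of CHAC1 (both GCN2iB comparisons and p53 KO against WT under GCN2iB), CHAC2 and GPX1 (both GCN2iB comparisons), GGCT and GSR (WT), GCLC (p53 KO) and GCLM (both genotype comparisons) held in 26 of 26. Sign changes among uncalled values were as follows, on the log2 scale. For the interaction, GCLM was -0.0076 with library totals, -0.0205 with genes of mean count 50 or more and -0.0433 with GC and length trends removed, GSS was -0.0037 with library totals and -0.0139 with genes of mean count 50 or more, and GCLC was 0.0676 without both GCN2iB libraries numbered 4. GPX4 was -0.0017 between genotypes under vehicle with no count filter, and -0.0414 with GCN2iB in WT with GC and length trends removed. With each library left out in turn, GPX4 between genotypes under vehicle ran from -0.1123 to 0.0897, CHAC2 there from -0.0149 to 0.1117, and the interaction of GCLM from -0.0072 to 0.0809, of GSS from -0.0304 to 0.0765 and of GCLC from -0.0956 to 0.0142. The number of the 9 genes called between genotypes under vehicle, 1, became 3 with library totals, genes of mean count 50 or more or both libraries numbered 4 omitted, 2 with no count filter, the DESeq2 test or the compared groups alone, 4 with GC and length trends removed, and 1 to 2 with a library left out. The interaction count over the pathway lists, 0, became 1 with no count filter or DESeq2, 2 with GC and length trends removed, and stayed at 0 with any library left out. The cause was not tested. With replicate number as a block the count between genotypes under vehicle was 4, and the pathway interaction count was 3. Of 24 same-numbered pairs of libraries 5 correlated above 0.1 in their residuals, while 13 of 16 libraries correlated best with a library of their own number. The main fit did not pair samples, as the labels name no batch, and whether the numbers mark a shared batch was not tested. With the block 2849 genes were called higher and 3290 lower with GCN2iB in WT, beside 2153 and 2524 in the main fit. For the interaction the block gave 35 and 26, beside 0 and 1. CHAC1 rests on 49 to 147 reads per library under GCN2iB, which limits its precision there.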

Other observations

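The remaining pathway lists concern oxidant defence outside glutathione itself. Of 19 tested genes of NRF2, its regulators and its targets, 6 were higher and 3 lower in p53 KO under vehicle, and the same counts held under GCN2iB. Of all genes 9.63% were higher and 12.1% lower under vehicle, and 12.7% and 11.2% under GCN2iB. HMOX1, heme oxygenase 1, was at 10.8 ± 1.35 CPM in WT vehicle and 16.7 ± 2.62 in p53 KO vehicle (log2 0.61, adjusted p = 0.00114, edgeR), and OSGIN1 was higher by 0.47 (adjusted p = 0.00371). NFE2L2, the gene of NRF2, was called in 1 comparison, higher in p53 KO under GCN2iB (0.28, adjusted p = 0.00197). With GCN2iB 4 genes of this list rose and 2 fell in WT, and 2 rose and 2 fell in p53 KO, NFE2L1 being lower in both (-0.26 and -0.32). Among 19 genes of selenocysteine synthesis and other selenoproteins, 3 rose and 4 fell with GCN2iB in WT and 2 rose and 4 fell in p53 KO. SEPHS2, which makes the selenium donor that GPX1 and GPX4 need, fell by 0.30 and 0.23 (adjusted p = 3.37e-04 and 0.00485). Under vehicle 6 were higher and 2 lower in p53 KO, SELENOK (0.52) and SELENOS (0.43) among the former. Of 15 genes of lipid peroxidation defence and ferroptosis, 2 rose and 5 fell with GCN2iB in WT and 1 rose and 3 fell in p53 KO. Of all genes 11.6% rose and 13.6% fell with GCN2iB in WT, and 11.4% and 8.71% in p53 KO. MBOAT2, a phospholipid acyltransferase, fell by 0.56 and 0.51. ACSL4, which loads polyunsaturated fatty acids into lipids, was higher in p53 KO by 1.03 under vehicle and 0.77 under GCN2iB, and LPCAT3 was lower by -0.35 and -0.54.

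Ratios of raw counts within a library need no scaling. CHAC1 reads were 1.95 ± 0.390 times those of CHAC2 in WT vehicle and 0.154 ± 0.0301 times in WT GCN2iB, and 2.18 ± 0.311 and 0.224 ± 0.0149 times in p53 KO (SD, n = 4). The ratio of GCLC to GCLM was 0.397 ± 0.00702 in WT vehicle, 0.362 ± 0.0353 in WT GCN2iB, 0.376 ± 0.00936 in p53 KO vehicle and 0.332 ± 0.0114 in p53 KO GCN2iB. The ratio of GPX1 to GPX4 was 0.220 ± 0.0121 and 0.324 ± 0.0559 in WT, and 0.195 ± 0.0292 and 0.222 ± 0.0145 in p53 KO. Among 10163 protein-coding genes with a mean of at least 5 CPM, the genes whose log2 CPM followed CHAC1 most closely over the 16 libraries were PCK2 (Pearson r 0.993), SLC6A9 (0.992), SLC1A5 (0.990), YARS1 (0.988) and ATF4 (0.987). The nearest to GPX1 was MTX2 (0.977), to GSS RPS16 (0.978), to GCLC GOLGA5 (0.981), to GCLM LPGAT1 (0.975), to GSR TMBIM6 (0.952), to CHAC2 PSMG2 (0.964) and to GGCT TMEM218 (0.959). The libraries fall into sets by treatment and genotype and share depth and GC trends, so these values describe a pattern and carry no p.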
